A study of Mus musculus with 18 samples.

Results

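Hepatic microRNA (miRNA) was compared between 5 male Muta™Mouse dosed with benzo(a)pyrene (BaP) at 50 mg/kg/day and 5 dosed at 25 mg/kg/day, 10 of the 18 arrays of the study. Arrays were chosen by the dose in their labels alone, with 1 array per animal, and no array was left out. All mice were 25 weeks old, belonged to transgenic strain 40.6, which carries a bacterial lacZ reporter used to score mutations, and received BaP in olive oil by gavage for 28 days. A part of the liver was taken 3 days after the last dose. The other 8 arrays were 3 from mice given olive oil alone and 5 from mice given 75 mg/kg/day. They entered the model for slide effects and spread and were not compared, though the slide effects shift the fitted difference. Whole liver was profiled, so fewer cells of a type and less RNA per cell cannot be told apart.

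MiRNAs are short RNAs that guide Argonaute proteins to partly complementary messenger RNAs and lower their translation or stability. Pairing starts at the seed, bases 2 to 8 of the mature miRNA, so miRNAs with one seed form a family with overlapping targets. In liver, BaP is oxidised by cytochrome P450 enzymes to a diol epoxide that binds DNA bases. DNA damage of this kind activates p53, and the genes that p53 transcribes include the miR-34 family, which lowers regulators of the cell cycle and of cell survival.

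The mature sequences below are those of RefSeq (GRCm38.p6), 5′ to 3′, with the seed in capitals. MiR-34a is shown because it was the one miRNA past the threshold, and miR-34b-5p because it has the same seed.
miR-34a: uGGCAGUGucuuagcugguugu
miR-34b-5p: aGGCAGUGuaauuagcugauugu
The next set had an unadjusted P-value under 0.05 without passing the adjusted threshold. Each is followed, where one was tested, by the family member that differs from it by 1 base.
miR-27b: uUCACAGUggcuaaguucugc
miR-27a: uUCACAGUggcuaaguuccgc
let-7c: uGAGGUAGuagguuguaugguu
let-7a: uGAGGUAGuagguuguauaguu
let-7b: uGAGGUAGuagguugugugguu
miR-29c: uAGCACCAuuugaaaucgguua
miR-29a: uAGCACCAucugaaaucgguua
miR-107: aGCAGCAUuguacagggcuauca
miR-103: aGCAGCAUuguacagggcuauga
miR-125b-5p: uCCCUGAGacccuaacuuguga
miR-365: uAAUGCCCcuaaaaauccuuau
MiR-23b and miR-34c are named only. Counted from the 5′ end, miR-27b and miR-27a differ by U19C, let-7c and let-7a by G19A, let-7c and let-7b by A17G, miR-29c and miR-29a by U10C, and miR-107 and miR-103 by C22G. None of these bases lies in the seed. The extent to which the probes tell such pairs apart was not tested.

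Mature miR-34a lies at chr4:150068473-150068494 on the plus strand, outside any other gene of the annotation. Mature miR-27b (chr13:63300760-63300780, plus strand) lies within Aopep, miR-107 (chr19:34820700-34820722, minus strand) within Pank1, which encodes a pantothenate kinase of coenzyme A synthesis, and miR-29c (chr1:195037600-195037621, plus strand) within the long non-coding RNA gene A330023F24Rik. Let-7c, miR-125b-5p and miR-365 each have 2 loci with one mature sequence, so their signal cannot be assigned to a locus.

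Signal of 69 names (68 mouse miRNAs and 1 miRNA of a murine herpesvirus) was tested. The arrays lay on 3 slides. Slide 1 held 2 arrays of each dose, slide 3 held 3 at 25 and 1 at 50 mg/kg/day, and slide 2 held 2 at 50 mg/kg/day with none at 25. The slide 2 arrays at 50 mg/kg/day therefore enter the fitted difference only through the 75 mg/kg/day arrays on that slide. The scanner software called 57 to 144 names detected per array at 25 mg/kg/day (96.8 ± 35.5, SD, n = 5) and 80 to 112 at 50 mg/kg/day (97.2 ± 12.6, SD, n = 5), a difference smaller than the spread between arrays (exact two-sided permutation P = 1). The fewest names were detected on replicate 4 and the most on replicate 1 of the 25 mg/kg/day group. Defining hepatocyte miRNAs were present on each of the 10 arrays (miR-122, miR-192, miR-194 and miR-148a), and the neuronal miR-9, miR-124 and miR-137 on none.

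MiR-34a rose from 25 to 50 mg/kg/day. Its normalised log2 signal on replicates 1 to 5 was 6.00, 5.79, 6.43, 6.90 and 6.54 at 25 mg/kg/day (6.33 ± 0.44, SD, n = 5). The corresponding values at 50 mg/kg/day were 7.18, 6.67, 6.92, 6.93 and 6.90 (6.92 ± 0.18, SD, n = 5). The groups overlapped through replicate 4 at 25 mg/kg/day, the array with the fewest detected names, which exceeded replicate 2 at 50 mg/kg/day. With slide as a block, the fitted difference was 0.74 ± 0.16 on the log2 scale (SE; 95% interval 0.40 to 1.08), a fold change of 1.67 (1.32 to 2.11), with an FDR-adjusted P-value of 0.0221 (limma). It was the only one of 69 names past the threshold (1.45%), and also the only one past it and over 1.5-fold. Within slide 1 the difference was 1.03. Within slide 3, where a single array at 50 mg/kg/day stood against 3 at 25, it was 0.28. Each of the 3 arrays at 50 mg/kg/day that shared a slide with arrays at 25 mg/kg/day was above all of them, although the margin on slide 3 was narrow (6.90 at both doses). Among the 69 names, 6 (8.70%) had these 3 arrays all above or all below the lower dose of their slide, miR-34a and miR-107 above and miR-27b, let-7c, miR-192 and miR-199a-3p below.

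This call was lost in some fits. Fitted on the 10 arrays alone, the difference was 0.71 with an adjusted P of 0.245 (limma). In that fit the arrays of slide 2 add nothing to the difference, because that slide held none at 25 mg/kg/day. Without slide in the model of all 18 arrays, the difference was 0.59 with an adjusted P of 0.26 (limma). Leaving out either slide 1 array of the lower dose (replicate 1 or 2) gave 0.69 and 0.62 with adjusted P-values of 0.061 and 0.121 (limma). Leaving out replicate 1 of the higher dose, also on slide 1, gave 0.63 with an adjusted P of 0.107. By an exact permutation of the normalised values, two-sided, P was 0.0159 without slide (smallest possible 0.00794) and 0.0833 within slides (24 arrangements, smallest possible 0.0417).

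Before normalization the doses did not overlap for miR-34a. The share of all tested names without overlap at that stage was not counted. Signal as scanned also follows the brightness of an array. The slide 2 arrays, both at 50 mg/kg/day, had the highest median log2 signal of all spots among the 10 (6.04 and 6.11). The log2 median signal, averaged over both probes, was 6.20, 5.74, 6.34, 6.45 and 6.09 on replicates 1 to 5 at 25 mg/kg/day. At 50 mg/kg/day it was 6.71, 6.68, 7.24, 7.15 and 7.11, so each array at the higher dose was above each at the lower. Relative to the median of all spots of the same array, miR-34a stood 0.21 to 0.82 above it at 25 and 1.04 to 1.22 above it at 50 mg/kg/day. The cyclic loess moved the miR-34a signal of replicates 4 and 5 at 25 mg/kg/day up by 0.44 and 0.45, and that of replicate 1 at 50 mg/kg/day by 0.46. These 3 arrays had the fewest detected names (57, 70 and 80), and the part of this in the overlap was not tested. With the log2 number of spots well above background as a further covariate, the difference was 0.75 ± 0.12 (SE, adjusted P = 0.00137, limma). This covariate was chosen after the data were seen.

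**Figure D1:**
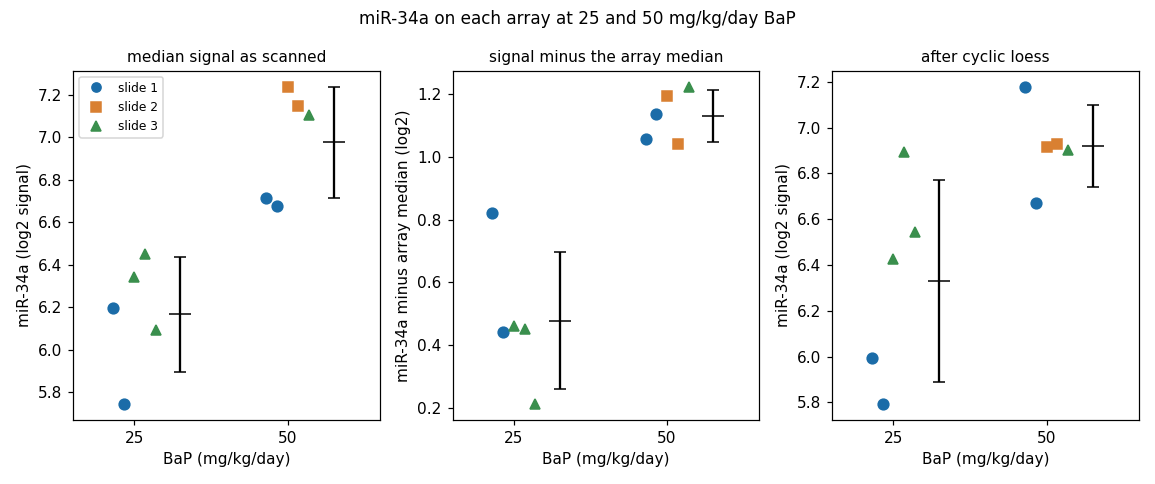
MiR-34a on each of the 10 arrays, as scanned (left), relative to the median of all spots of the array (middle) and after cyclic loess (right). The y axes are log2 signal or log2 difference, points are animals marked by slide, and the bars beside them are the mean and SD (n = 5). The doses are apart in the left and middle panels, which was not counted for other names. Replicate 4 at 25 mg/kg/day (6.90) lies among the 50 mg/kg/day arrays in the right panel.

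The software's background-subtracted total signal of miR-34a, a linear intensity not scaled between arrays, was 42.6, 19.8, 24.2, 21.0 and 6.72 at 25 mg/kg/day. At 50 mg/kg/day it was 76.7, 75.7, 127, 104 and 113. The medians were 21.0 and 104, and the lowest array at 50 mg/kg/day stood above the highest at 25. Whether other names were apart in the same way was not counted. Scaled between arrays and fitted in the same way, this signal gave a fold change of 4.03 (adjusted P = 0.00928, limma), and the processed signal gave 4.11 (adjusted P = 0.0365), against 1.67 from the median signal. These signals also differ from the median signal in how spots are summarised and how arrays are scaled. Scaled values below 1 were set to 1. With total gene signal the largest log2 difference was that of miR-144 (2.33, against 2.01 for miR-34a), and miR-144 was not past the threshold. The median signal with normexp background correction gave a difference of 0.59 on the log2 scale, against 0.74 without it. That correction was run with an added offset of 50, which makes log2 differences of dim probes smaller. It therefore cannot show what background subtraction alone does to the fold. The cause of the larger folds was not tested.

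The pair of miR-34a probes differed in brightness. The brighter probe, with 4 of 5 arrays at 25 and 5 of 5 at 50 mg/kg/day above background, gave a difference of 0.92 ± 0.17 (SE; adjusted P over 112 probes 0.00795, limma). The dimmer was above background on 1 of 5 and 5 of 5 arrays and gave 0.55 ± 0.16 (SE, adjusted P = 0.0818, limma). It passed the filter only through the 50 and 75 mg/kg/day groups. Both probes were higher at 50 mg/kg/day. For the dimmer probe this is not separate support, because it was kept through groups where its signal was high. The other arms of the family on the array (miR-34b-5p, miR-34b-3p, miR-34c and its star strand) were not above background on any of the 18 arrays. Mean signals of the miR-34b-5p probes were 5.78 and 5.83 at 25, and 5.79 and 5.84 at 50 mg/kg/day.

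No other miRNA passed the threshold. Besides miR-34a, the largest fitted difference in either direction was 0.38 on the log2 scale. The median size over the 69 names was 0.04 (1.03-fold), and 27 were above 0 and 42 below. This balance of signs turned with the scaling. Names above 0 numbered 31 with quantile normalization and 26 with normexp, but 46 with array medians centred, 45 with processed signal, 54 with total gene signal and 59 in the table the authors deposited. The median over the 69 names was -0.03 as fitted and between -0.02 and 0.09 under these scalings, so small differences of either sign have no settled direction. In all, 8 names (11.6%) had an unadjusted P-value under 0.05, 3 of them higher and 5 lower at 50 mg/kg/day. The 95% interval of 57 names (82.6%) lay wholly within 1.2-fold in either direction, and that of 66 (95.7%) within 1.5-fold. The 3 names whose interval reached beyond 1.5-fold were miR-34a, miR-451 and miR-1224, which were also the 3 names (4.35%) with a fitted difference over 1.2-fold. Within slide 1 and within slide 3, which held a single array at 50 mg/kg/day, 40 names had opposite signs.

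**Figure D2:**
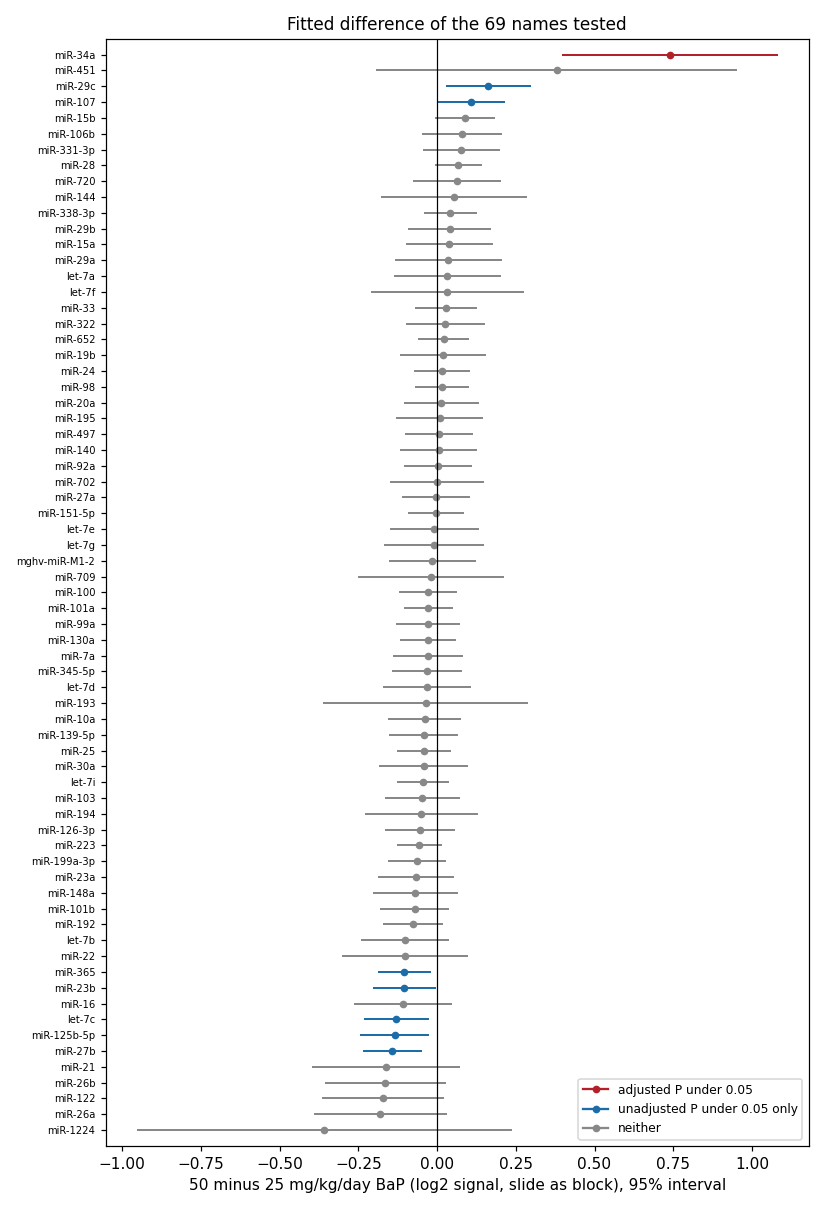
Fitted difference between 50 and 25 mg/kg/day (x axis, log2 signal) with its 95% interval for each of the 69 names (y axis, ordered by difference). MiR-34a, at 0.74, is the only name with an adjusted P under 0.05; the 7 names in blue have an unadjusted P under 0.05 only, and the widest intervals are those of miR-1224 and miR-451.

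Signals of miR-451 and miR-1224 varied widely among the animals of a dose. MiR-451, which is processed in red blood cell precursors, read 9.32, 8.71, 8.96, 8.41 and 8.36 at 25 mg/kg/day and 9.53, 9.01, 9.14, 9.11 and 8.55 at 50. Its groups overlapped, and its fitted difference was 0.38 ± 0.27 (SE; adjusted P = 0.578, limma). MiR-1224 read 6.87, 7.12, 9.02, 7.39 and 7.32 at 25 mg/kg/day and 7.19, 6.76, 7.24, 7.26 and 7.39 at 50. Replicate 3 at 25 mg/kg/day stood far above the other arrays; the fitted difference was -0.36 ± 0.28 with this array and -0.09 without it (SE; adjusted P = 0.625 and 0.888, limma).

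Among the 5 names lower at 50 mg/kg/day with an unadjusted P under 0.05, miR-27b, a regulator of lipid metabolism genes, had the smallest. It read 7.01, 6.86, 6.51, 6.55 and 6.54 at 25 mg/kg/day and 6.70, 6.74, 6.48, 6.49 and 6.45 at 50. Each of the 3 arrays at 50 mg/kg/day that shared a slide with the lower dose was below all of that slide's arrays at 25 mg/kg/day. The fitted difference was -0.14 ± 0.04 (SE; adjusted P = 0.148, limma), or 1.10-fold, and it was -0.22 and -0.09 within slides 1 and 3. Of its 2 probes, 1 passed the filter, above background on 3 of 5 arrays at 25 and 5 of 5 at 50 mg/kg/day, and with no filter the difference was -0.08. The sign was not kept by every scaling, with 0.04 by quantile normalization, 0.13 by processed signal, 0.78 by total gene signal and 0.00 in the authors' table, none past the threshold.

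Let-7c, of a family that restrains growth-promoting genes, read 8.26, 8.40, 8.06, 8.00 and 8.06 at 25 mg/kg/day and 8.18, 8.17, 7.86, 7.84 and 7.98 at 50. Here too all 3 arrays that shared a slide were below their slide's 25 mg/kg/day arrays. The difference was -0.13 ± 0.05 (SE; adjusted P = 0.212, limma), and the probes differed in size (-0.06 and -0.20). In the authors' table it was 0.04. MiR-125b-5p, a relative of the lin-4 miRNA of worms, read 6.71, 6.52, 6.24, 6.24 and 6.21 against 6.38, 6.36, 6.17, 6.20 and 6.22, with a difference of -0.13 ± 0.05 that was -0.24 within slide 1 and -0.02 within slide 3. It too had 1 of 2 probes past the filter, above background on 3 of 5 arrays of the lower dose, and its difference was -0.06 with no filter. It was above 0 with quantile normalization (0.04), processed signal (0.50), total gene signal (1.41) and the authors' table (0.02), not past the threshold in any. MiR-365 had a difference of -0.10 ± 0.04 and miR-23b of -0.10 ± 0.05 (SE; adjusted P = 0.212 and 0.365, limma), and these were 0.01 for miR-365 in the authors' table and 0.08 and 0.06 for miR-23b with processed and total gene signal.

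Of the names higher at 50 mg/kg/day, miR-29c, whose family lowers collagens and DNA methyltransferases, read 8.22, 8.09, 7.99, 7.99 and 8.01 at 25 and 8.18, 8.15, 8.22, 8.22 and 8.35 at 50 mg/kg/day. The 25 mg/kg/day arrays of slide 3 were below each 50 mg/kg/day array, as was 1 of the 2 on slide 1 (8.09), while the other lay among them (8.22). The difference of 0.16 ± 0.06 (SE; adjusted P = 0.212, limma) was 0.01 within slide 1 and 0.35 within slide 3. Without replicate 1 at 25 mg/kg/day miR-29c was past the threshold (0.23, adjusted P = 0.0486, limma) and miR-34a was not. MiR-107 differed more between slides than between doses. It read 7.08 and 7.07 on the slide 1 arrays at 25 mg/kg/day and 7.62, 7.53 and 7.51 on those of slide 3, and its difference was 0.11 ± 0.05 (SE; adjusted P = 0.366, limma).

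As normalised, no name (0%) had its 5 arrays at 50 mg/kg/day all above or all below the 5 at 25. After the fitted slide effects were subtracted, 3 names did (4.35%): miR-34a above, and miR-27b and let-7c below. The subtracted effects come from the fit that gave the differences, so this is the same evidence in another form.

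**Figure D3:**
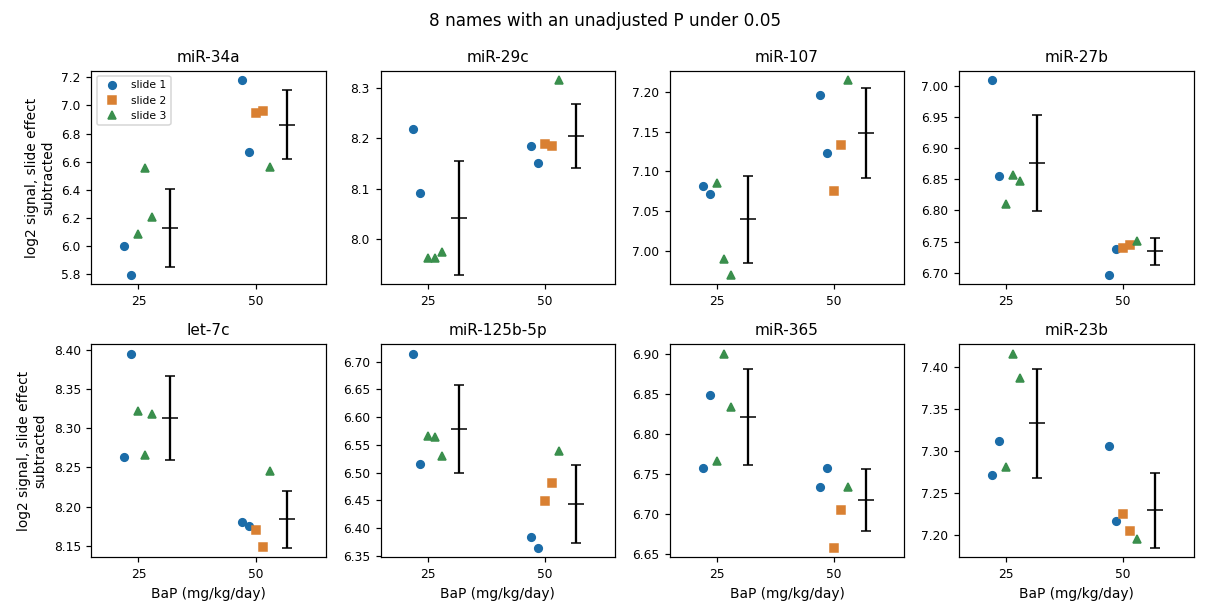
Log2 signal with the fitted slide effect subtracted (y axes) at 25 and 50 mg/kg/day (x axes) for the 8 names with an unadjusted P under 0.05. Points are animals marked by slide and bars the mean and SD (n = 5); the doses do not overlap for miR-34a, miR-27b and let-7c and do for the other 5, and the range of the miR-34a axis is the widest.

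MiRNAs tied to p53 in general knowledge were counted next. Of 30 such names on the array, 9 were tested, of which 1 (miR-34a) was past the threshold. The fitted differences of the other 8 lay between -0.18 for miR-26a and 0.11 for miR-107, with a median of -0.06 against -0.03 over all 69 names. They included miR-192 (-0.08 ± 0.04) and miR-194 (-0.05 ± 0.08), abundant in liver, the cell cycle inhibitors miR-15a (0.04 ± 0.06), miR-15b (0.09 ± 0.04) and miR-16 (-0.11 ± 0.07), and miR-22 (-0.10 ± 0.09; all SE).

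The 7 hepatocyte-abundant names all had a fitted difference below 0 (median -0.07), as did 42 of the 69 names, and none was past the threshold. With the same 7, the number below 0 was also 7 with normexp, 4 with quantile normalization, 3 with processed signal, 2 with array medians centred, 2 with total gene signal and 0 in the authors' table, so they have no settled direction. MiR-122, by far the most abundant hepatocyte miRNA, read 13.65, 13.83, 13.39, 13.77 and 13.64 at 25 mg/kg/day and 13.33, 13.51, 13.48, 13.49 and 13.60 at 50. The groups overlapped. Its difference was -0.17 ± 0.09 (SE; adjusted P = 0.444, limma), which was -0.32 within slide 1 and -0.00 within slide 3. The others were miR-192 (-0.08), miR-101b (-0.07), miR-148a (-0.07), miR-194 (-0.05), miR-193 (-0.04) and miR-101a (-0.03). The summed linear signal of the 7 ranged from 12048 to 15999 at 25 and from 11784 to 13583 at 50 mg/kg/day; its part in the results of other names was not tested.

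No tested marker of other cells passed the threshold. Of 9 blood and immune cell markers on the array, 3 were tested (miR-451, miR-144 and the myeloid miR-223, at 0.38, 0.05 and -0.06). The untested miR-142-3p and miR-146a were each present on 2 of 5 arrays at either dose. MiR-142-5p, miR-150, miR-155 and miR-486 were not present on any array. The summed linear signal of the 3 tested markers ranged from 483 to 817 at 25 and from 522 to 918 at 50 mg/kg/day. Endothelial miR-126-3p had a difference of -0.05 ± 0.05 and stromal miR-199a-3p of -0.06 ± 0.04 (SE), whereas the stromal miR-143, miR-145 and miR-214 were not present on any array. None of the 7 epithelial markers on the array passed the filter. MiR-200a and miR-200b were present on 2 of 5 arrays of the lower dose, whose detected names ranged from 57 to 144, and on none of the higher. The other 5 (miR-141, miR-200c, miR-203, miR-205 and miR-429) were not present on any array.

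Families and clusters were described in the same way. The let-7 family had 3 members above 0 and 6 below (median -0.01). All 5 members of the miR-23/27/24 group were tested, 4 of them below 0 (median -0.07). The miR-29 family had all 3 members above 0 (median 0.04), the miR-15/16 family 5 of 6 (median 0.02), and the miR-26 pair both below 0 (-0.18 ± 0.10 for miR-26a and -0.16 ± 0.09 for miR-26b, SE). None of these members passed the threshold, and these counts too turned with the scaling. In the authors' table, for example, all 9 let-7 members were above 0, and with processed or total gene signal all 5 of the miR-23/27/24 group were. For the miR-29 family the median was above 0 in each scaling tried, with 1 member below 0 under quantile normalization. Within slide 1, however, miR-29a, miR-29b and miR-29c stood at -0.16, -0.00 and 0.01. Within slide 3, with its single array at 50 mg/kg/day, they stood at 0.32, 0.19 and 0.35. MiR-21, which rises in many forms of liver injury, had a difference of -0.16 ± 0.11 (SE; adjusted P = 0.578, limma). No passenger strand was among the 69 names tested.

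**Figure D4:**
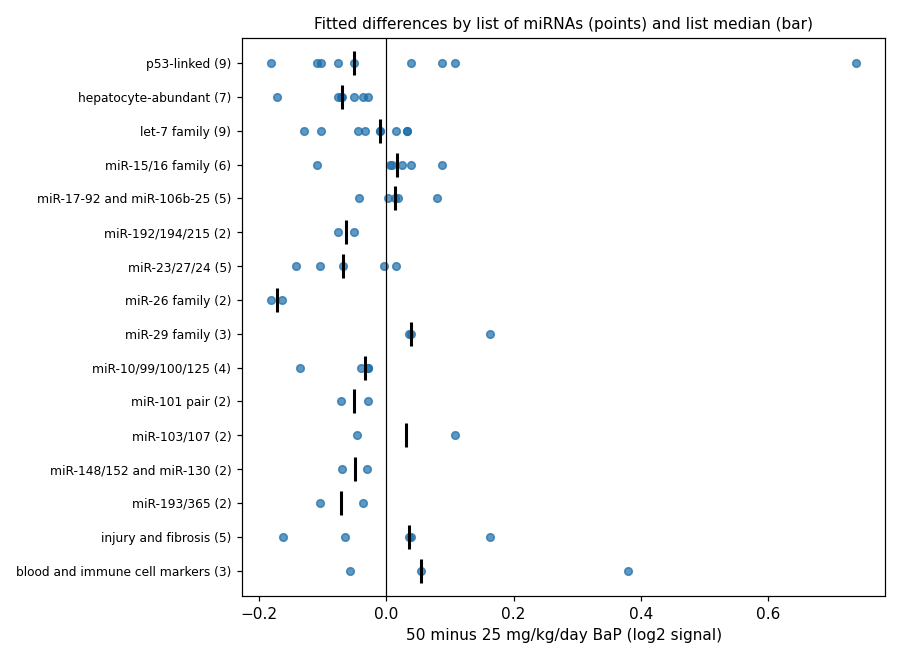
Fitted difference between 50 and 25 mg/kg/day (x axis, log2 signal) of each tested member (points) of the lists with at least 2 tested names (y axis, number tested in parentheses), with the list median as a vertical bar. MiR-34a, at 0.74 in the p53-linked list, is the only member past the threshold, and miR-451, at 0.38 among the blood and immune markers, is the next highest.

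Neighbouring loci and close paralogs were set beside each other after the values were seen, with no test. On chromosome 16, miR-99a, let-7c and miR-125b-5p lie within 47361 bp on the plus strand, with differences of -0.03, -0.13 and -0.13. On chromosome 13, miR-27b (-0.14) lies within 513 bp of a locus of miR-24 (0.02). MiR-24 has another locus on chromosome 8 with the same mature sequence, so its signal cannot be assigned to either. MiR-23b (-0.10), for which no sequence was available, was not placed among the loci. MiR-27a, which differs from miR-27b by U19C as printed above, stood at -0.00 ± 0.05. Let-7c (-0.13 ± 0.05) stood against 0.03 ± 0.08 for let-7a and -0.10 ± 0.06 for let-7b, and miR-29c (0.16 ± 0.06) against 0.04 ± 0.08 for miR-29a. MiR-107 (0.11 ± 0.05) stood against -0.05 ± 0.05 for miR-103 (all SE).

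The step from 25 to 50 mg/kg/day was then set against the next step of equal size, from 50 to 75. Both steps use the 50 mg/kg/day arrays, and the test was of the difference of the steps. For miR-34a, the mean signal was 5.92 without BaP and 6.33, 6.92 and 7.82 at the successive doses. The second step was 0.90 ± 0.14 (SE), and it exceeded the first by 0.16 ± 0.26 (SE; 95% interval -0.39 to 0.71; adjusted P = 0.934, limma), so the interval included steps of the same size. No name (0%) was past the threshold for this difference, and 4 (5.80%) had an unadjusted P under 0.05. These were miR-27b, miR-125b-5p, miR-29c and miR-107, for each of which the sign of the second step was opposite to that of the first. All of them also had an unadjusted P under 0.05 for the first step. Picking names by a large difference of steps that share the 50 mg/kg/day arrays favours opposite signs. The opposite signs are therefore not separate evidence of a turn with dose, and their share over all names was not counted. MiR-27b averaged 6.54, 6.69, 6.57 and 6.61 from control to 75 mg/kg/day, with a second step of 0.04 ± 0.04. MiR-29c averaged 8.13, 8.06, 8.22 and 8.17, with a second step of -0.05 ± 0.06 (both SE).

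**Figure D5:**
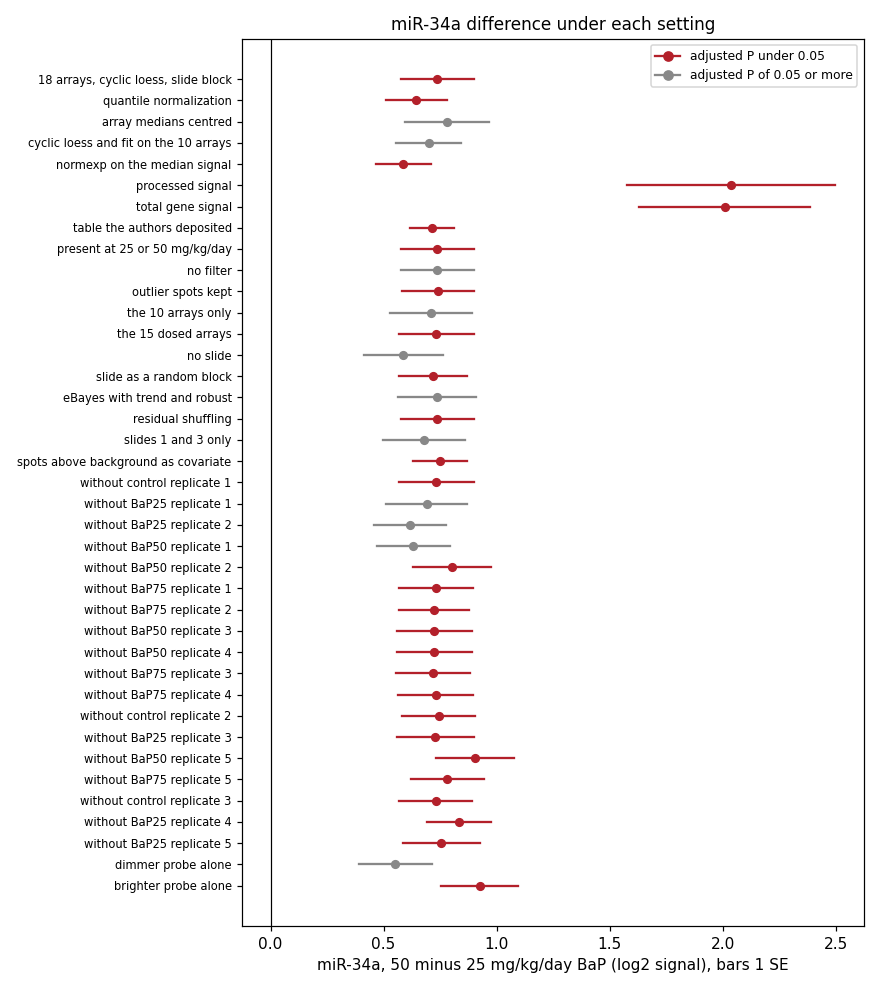
Difference in miR-34a between 50 and 25 mg/kg/day (x axis, log2 signal, bars 1 SE) under each setting of the processing or model (y axis). Every fitted value is above 0. Past an adjusted P of 0.05 (red) are 15 of 18 fits that left out 1 array and 11 of 18 other settings. The arrays left out include those of control and 75 mg/kg/day, which were not compared. Among the fits that left out 1 array, each without the call lacked a slide 1 array at 25 or 50 mg/kg/day. The processed and total gene signals stand apart at 2.04 and 2.01.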

How the data were processed

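The authors extracted the scans with Agilent Feature Extraction 10.7.3.1, and the deposited files hold 1-colour spot intensities, not normalised between arrays. The authors also deposited a log2 table of 1 value per name, whose centring is unknown; it was used as an alternative. Following the study's methods, the median spot signal was used without background subtraction, log2 transformed and normalised by cyclic loess over 11540 non-control spots (limma 3.58.1, R 4.3.3). Outlier spots were removed, and values were summarised as the median over a probe's spots and the mean over a name's present probes. Background was not subtracted, which makes log2 differences of dim probes smaller.

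Presence on an array required at least 0.5 of a probe's spots to be well above background. A probe was kept when present on at least 0.8 of the arrays of a group, which left 112 probes of 69 names. Limma was fitted to all 18 arrays with slide as a fixed block (two-sided, Benjamini-Hochberg over 69 names, threshold 0.05). Replicate numbers only name arrays. The code was tested on simulated data. The number of arrays limits the precision.

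Members, lists and tests were chosen with earlier results of these data known. Names were taken by rule: miR-34a, its family and miR-122; names past the threshold; the 8 smallest P-values in each direction; differences over 1.2-fold; names without overlap; and up to 4 of the brightest tested names of each list. Alternatives changed the normalization, signal, filter, arrays, slide term or test. Sequences and loci came from RefSeq tables (GRCm38.p6), matched by current miRNA name.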

Additional observations from a re-analysis of the deposited data

Results flagged for a closer look

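In 102 groups of 5 arrays (named miRNAs and detected names at either dose), 8 had 1 array that stood apart from the other 4 by more than 0.71 of the group's range, and chance alone gives about 1 in 20. Of these, 3 were high values of replicate 1 at 25 mg/kg/day: miR-144 (6.65, next 6.33, ratio 0.734), miR-194 (7.01, next 6.64, ratio 0.739) and miR-26a (7.18, next 6.66, ratio 0.766). That array had the most detected names of the 10. Replicate 2 at 25 mg/kg/day was high for miR-23a (7.65, next 7.36, ratio 0.735) and low for miR-331-3p (5.96, next 6.18, ratio 0.716). Replicate 3 at 25 mg/kg/day was high for miR-1224 (9.02, next 7.39, ratio 0.757), the widest gap. Replicate 1 at 50 mg/kg/day was low for miR-148a (8.28, next 8.47, ratio 0.778) and miR-26a (6.46, next 6.56, ratio 0.783). MiR-34a was not among them at either dose.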

How the results depend on the processing

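The miR-34a difference was above 0 in each setting tried. It was past the threshold in 11 of 18 settings over all names and in 15 of 18 fits that left out 1 array (0.62 to 0.90, adjusted P 0.00268 to 0.121, limma). Those fits include ones without a control or 75 mg/kg/day array, which were not compared, and none of these lost the call. The fits that lost it lacked a slide 1 array, replicate 1 or 2 at 25 or replicate 1 at 50 mg/kg/day. The miR-34a difference stayed past the threshold without replicate 2 at 50 mg/kg/day, also on slide 1 (0.80). It lost the call with array medians centred (0.78, adjusted P = 0.0528), cyclic loess and fit on the 10 arrays (0.70, 0.0559), no filter (0.74, 0.267), the 10 arrays only (0.71, 0.245), no slide (0.59, 0.26), trend and robust eBayes (0.74, 0.0648), slides 1 and 3 only (0.68, 0.193; chosen after seeing the data), the dimmer probe (0.55, 0.0818) and the exact permutation test within slides (0.71, P = 0.0833). Within slide 3 it was 0.28. The covariate for spots above background was also added after seeing the data. The number of miRNAs past the threshold was 0 (limma) in the 7 settings above that refit all names, with 1 to 9 at an unadjusted P under 0.05 (37 with no filter), and 0 among the 42 names present on all 18 arrays, which leave out miR-34a (3 unadjusted), and 0 to 1 with 1 array left out. The causes were not tested. Names without overlap numbered 3 after slide effects were subtracted. The number of names whose steps differed was 0 throughout. For miR-34a the difference of the steps, not past the threshold in any fit, was -0.64 with processed signal, -0.55 with total gene signal, 0.71 within slide 3, and -0.11 to 0.36 with 1 array left out. Of 1899 values of the other 49 named miRNAs, 189 had the opposite sign and 1 (miR-29c, above) was past the threshold; 5 names (miR-107, miR-1224, miR-15b, miR-29c and miR-331-3p) kept their sign throughout. No paired analysis was possible because the labels give no replicate numbers that match animals across doses. Dim signal limits miR-34a: at 25 mg/kg/day its dimmer probe was above background on 1 of 5 arrays.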
